A study of Homo sapiens with 9 samples.

Results

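The transcriptional coactivators of the PGC1 family and the genes of hepatic glucose production that they are known for were followed through a treatment of HepG2 cells with a PPARα agonist. The group holds 8 genes, taken by symbol from the array annotation with every probe set that carries the symbol alone: PPARGC1A, PPARGC1B, PCK1, PCK2, G6PC1, FBP1, PC and CREB3L3. They are 8 of 19775 genes measured, and 13 of 41091 probe sets. Of the 8 genes, 5 were read by 1 probe set and 3 by several.

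The study hybridised RNA of HepG2, an established human hepatoma cell line, to 9 Affymetrix expression arrays. There were 3 arrays for each of 3 groups. The first group received only the solvent DMSO (vehicle), and the others were exposed to GW7647 at 100 nM, one for 6 h and one for 24 h. GW7647 is a synthetic agonist of PPARα, the nuclear receptor that turns on fatty acid burning in the liver. All groups share the cell line and the phenol red-free medium, and none carries a genetic change that the labels name. The sources used here do not give the harvest time of the vehicle cells, so a change between 6 h or 24 h and vehicle cannot be told apart from time in culture. The same holds for 24 h against 6 h, since no control was matched to each time. The labels do not say that the 3 arrays of a group came from separate cultures, so p-values reflect the spread among these arrays alone, and that spread may be technical. The description of vehicle array 2 carries an added letter that the labels do not explain, and it was used as labelled. As a model, HepG2 is 1 tumour line and stands for no other liver cell.

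PGC1α (encoded by PPARGC1A) and PGC1β (PPARGC1B) do not bind DNA themselves. They dock on transcription factors, among them PPARα, HNF4α, FOXO1 and the estrogen-related receptors, and recruit the machinery that activates transcription. In the fasting liver PGC1α is induced through glucagon and cAMP, and it is known for raising the enzymes that make glucose from lactate, amino acids and glycerol. The pathway starts in the mitochondrion with pyruvate carboxylase (PC), passes through phosphoenolpyruvate carboxykinase in the cytosol (PCK1) or the mitochondrion (PCK2) and fructose-1,6-bisphosphatase (FBP1), and ends with glucose-6-phosphatase (G6PC1), which releases free glucose. CREB3L3 (also called CREBH) encodes a liver transcription factor that is held in the endoplasmic reticulum membrane, is freed by proteolysis, and acts in fasting on lipid and glucose genes.

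The promoters of the members that rose at 24 h are shown as reference sequence. Whether partners of the coactivators act on these windows was not tested. Promoter windows were taken from the RefSeq annotation of GRCh38.p14, as the 250 bases before each annotated start, 5′ to 3′ on the strand of the gene. Of the 8 genes, 7 had at least 1 window and there were 10 windows in all. PCK1 had none. Capitals mark matches, on either strand, to one of the letters searched for.
PPARGC1A promoter (chr4:23881102-23881351, minus strand): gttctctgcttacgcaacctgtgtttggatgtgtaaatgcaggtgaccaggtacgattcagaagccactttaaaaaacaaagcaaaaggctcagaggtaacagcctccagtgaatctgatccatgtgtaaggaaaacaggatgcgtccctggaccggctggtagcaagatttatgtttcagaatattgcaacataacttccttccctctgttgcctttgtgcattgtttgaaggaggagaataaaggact
PPARGC1A promoter (chr4:24472906-24473155, minus strand): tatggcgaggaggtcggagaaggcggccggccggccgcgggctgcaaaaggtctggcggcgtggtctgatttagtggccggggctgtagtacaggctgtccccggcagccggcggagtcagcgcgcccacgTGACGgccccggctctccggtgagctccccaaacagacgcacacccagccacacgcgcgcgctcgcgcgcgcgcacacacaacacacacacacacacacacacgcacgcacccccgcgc
PCK2 promoter (chr14:24094061-24094310, plus strand): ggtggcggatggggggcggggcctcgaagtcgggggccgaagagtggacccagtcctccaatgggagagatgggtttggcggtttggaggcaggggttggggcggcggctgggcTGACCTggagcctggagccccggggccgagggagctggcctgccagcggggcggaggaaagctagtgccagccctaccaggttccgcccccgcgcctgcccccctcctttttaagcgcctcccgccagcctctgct
G6PC1 promoter (chr17:42900549-42900798, plus strand): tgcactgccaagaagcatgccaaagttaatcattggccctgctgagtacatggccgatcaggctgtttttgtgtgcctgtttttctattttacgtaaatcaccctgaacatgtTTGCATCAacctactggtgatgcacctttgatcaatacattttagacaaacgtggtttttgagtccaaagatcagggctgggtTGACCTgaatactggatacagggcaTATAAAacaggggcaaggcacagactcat
CREB3L3 promoter (chr19:4153381-4153630, plus strand): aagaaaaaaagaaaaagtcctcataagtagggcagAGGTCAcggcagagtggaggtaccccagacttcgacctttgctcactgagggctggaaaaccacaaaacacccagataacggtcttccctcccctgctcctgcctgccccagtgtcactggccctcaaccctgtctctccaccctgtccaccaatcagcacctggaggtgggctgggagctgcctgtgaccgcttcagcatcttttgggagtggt

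The letters searched for on both strands were the cAMP response element TGACGTCA, the core CREB site TGACG that lies within it, the single nuclear receptor site AGGTCA, the direct repeat AGGTCANAGGTCA that PPARα and RXR bind and that contains the single site, the forkhead site GTAAACA, the C/EBP-ATF composite site TGATGCAA and the TATA box TATAAA. Among 35116 RefSeq windows of the same length, 21.2% held TGACG, 12.1% held AGGTCA, 10.7% held TATAAA, 2.98% held GTAAACA, 1.65% held TGACGTCA, 0.772% held TGATGCAA and 0.0171% held the direct repeat. Of the 10 member windows, 4 held the single nuclear receptor site, in PCK2, G6PC1, PC and CREB3L3. The G6PC1 window held 3 matches: the composite site from 137 bases before the start, the single nuclear receptor site from 54 and the TATA box from 29. The downstream PPARGC1A window, at the lower coordinates since the gene lies on the minus strand, held none of these letters, and the upstream window held TGACG from 119 bases before the start. TGACG was in 2 of the 10 windows, the other being a PC window with matches from 186, 160 and 111 bases before the start. The single nuclear receptor site lay from 136 bases before the start in PCK2 and from 215 in CREB3L3. The direct repeat, the forkhead site and the full cAMP response element were in 0 of the 10 windows. These matches describe the letters of the reference only. Binding at these windows was not analysed here.

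The arrays were alike in quality. Their median log2 signals over all probe sets lay between 5.61 and 5.68. Correlations over the brightest probe set of each gene were 0.997 to 0.999 within groups and 0.995 to 0.998 between them. Control probe sets for the 3′ and 5′ ends of actin differed by 0.15 to 0.40 on the log2 scale. All 9 measured markers of hepatoma cells, such as ALB, AFP and APOA1, lay at or above the 89.8th percentile of mean signal. Their mean level ran from 13.12 to 13.16 in vehicle arrays, was 13.08 in every 6 h array and ran from 12.97 to 13.01 at 24 h. Of 15 markers measured for endothelial, immune, stellate and bile duct cells, 9 lay below the median signal. Their mean level ran from 6.60 to 6.65 with vehicle, from 6.63 to 6.68 at 6 h and from 6.60 to 6.71 at 24 h. CD14 of this list fell by 0.29 at 6 h and ACTA2 rose by 0.27 at 24 h (log2). The part of these markers in the results was not tested.

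At 6 h of GW7647 the member changes that passed went down. PPARGC1A fell 1.56-fold and PC fell 1.25-fold, while the other 6 did not pass the test. At 24 h the picture had turned. PCK2 rose 2.04-fold, CREB3L3 1.5-fold, PPARGC1A 1.47-fold and G6PC1 1.32-fold over vehicle, 0 members fell, and PC was back near vehicle. Between 6 h and 24 h, PPARGC1A rose 2.29-fold, PCK2 1.96-fold, G6PC1 1.41-fold and PC 1.27-fold. PPARGC1B, PCK1 and FBP1 passed in none of the 3 comparisons. In such bulk samples of a cell line a lower RNA level can come from fewer cells that express the gene or from less RNA per cell. These cannot be told apart.

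Calls are adjusted p-values under 0.05 from limma, with Benjamini-Hochberg adjustment over all genes, and errors of changes are standard errors (SE). At 6 h against vehicle, 2 of 8 members fell and 0 rose, while 3.54% of all genes were called, 1.64% higher and 1.91% lower. At 24 h against vehicle, 4 of 8 rose and 0 fell, while 8.17% of all genes were called, 5.38% higher and 2.8% lower. At 24 h against 6 h, 4 of 8 rose and 0 fell, while 13.8% of all genes were called, 9.23% higher and 4.57% lower. The members' median log2 change was -0.12 at 6 h, 0.28 at 24 h and 0.35 between the times, beside 0.0039, 0.0034 and -0.0097 over all genes. The 3 comparisons share their arrays pairwise, so their values for a gene are not independent. Between the times 66.9% of all calls were rises, a split of 1826 to 903. Quantile normalization gave 1457 to 1207 and median centring 2175 to 653.

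**Figure D1:**
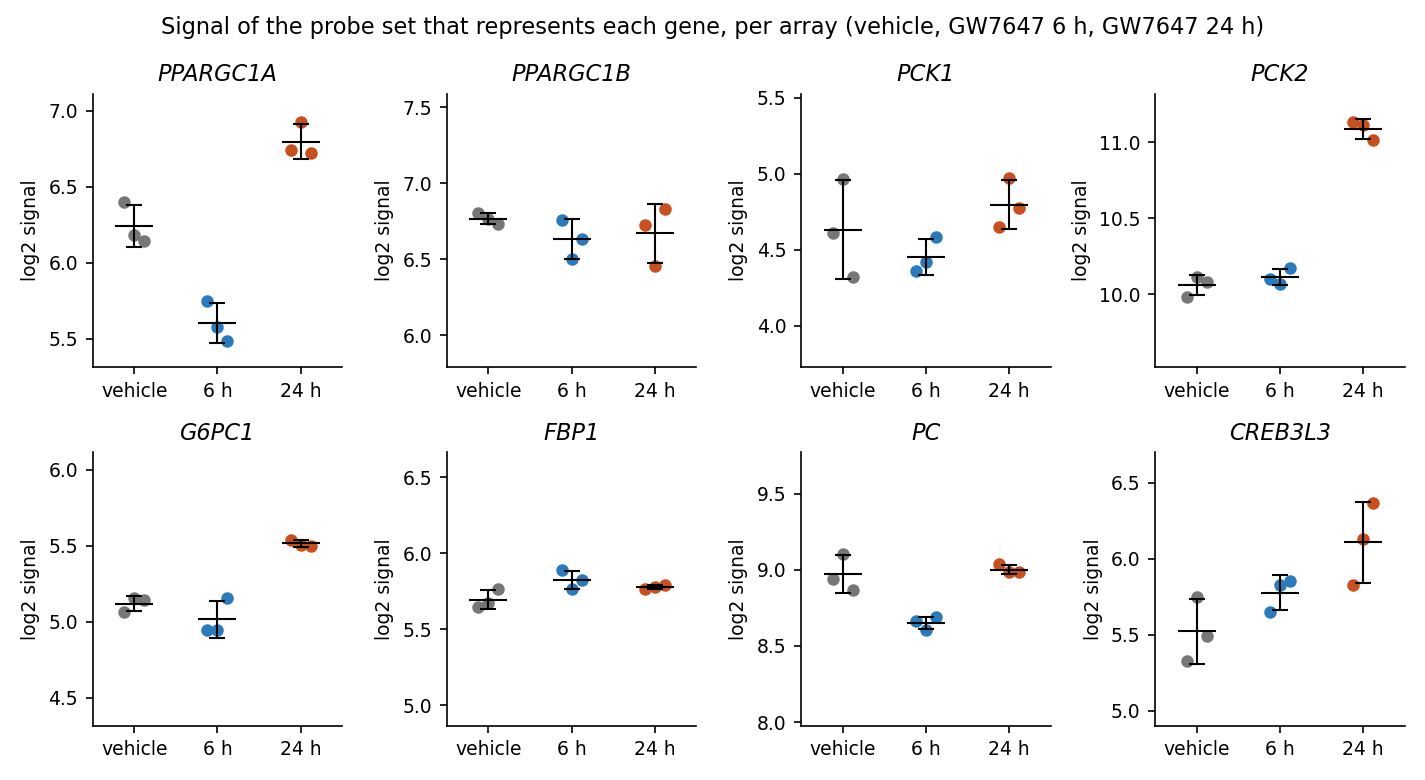
Log2 signal (vertical axis) of the probe set that represents each of the 8 genes, in 3 vehicle, 3 GW7647 6 h and 3 GW7647 24 h arrays; points are arrays, horizontal lines are means and bars are SD. Every panel spans the same number of log2 units but has its own range. The 6 h arrays of PPARGC1A (5.48 to 5.75) lie below and its 24 h arrays (6.72 to 6.93) above the vehicle arrays, and for PCK2 the 24 h arrays stand apart from both other groups.

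**Figure D2:**
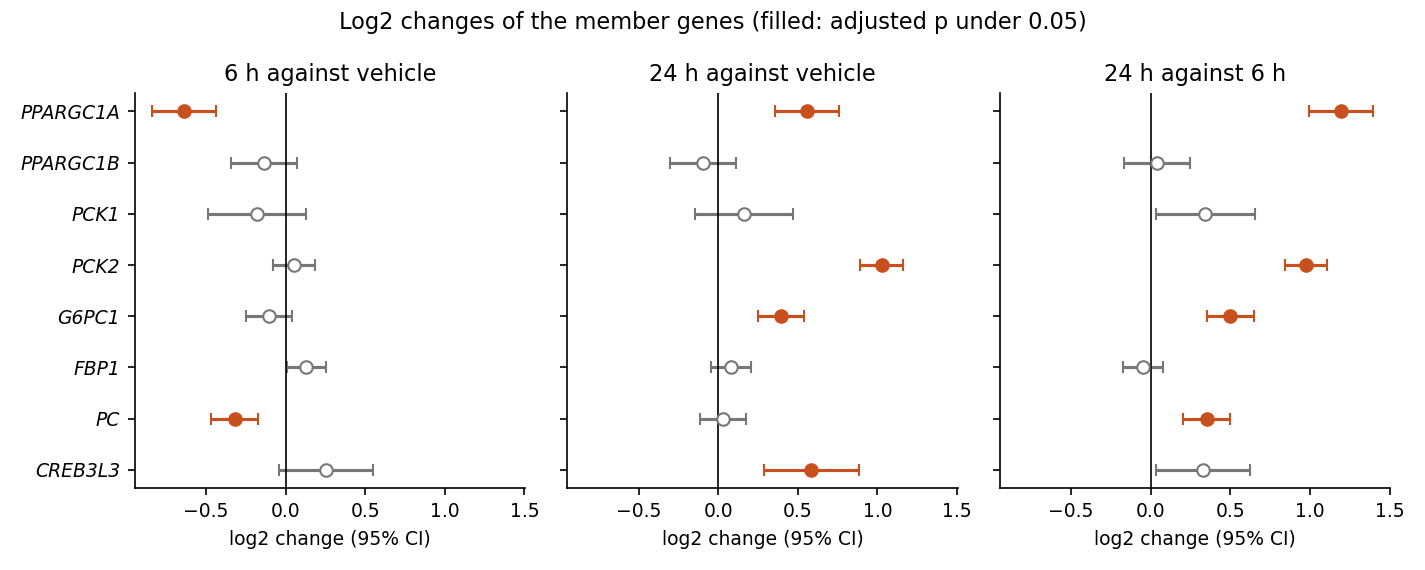
Log2 change (horizontal axis) of each of the 8 genes in the 3 comparisons, with 95% confidence intervals from the limma fit; filled points passed at an adjusted p under 0.05. At 6 h the filled points (PPARGC1A and PC) lie left of 0, and at 24 h against vehicle the 4 filled points lie right of it.

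PPARGC1A was the member with the widest swing. Its probe set 219195_at read log2 signals of 6.40, 6.18 and 6.14 in the vehicle arrays, 5.75, 5.58 and 5.48 at 6 h, and 6.74, 6.93 and 6.72 at 24 h. The 3 groups did not overlap, and their order was 6 h, vehicle, 24 h. The means were 6.24 ± 0.14, 5.60 ± 0.13 and 6.80 ± 0.11 (SD, n = 3). The change at 6 h was -0.64 ± 0.09 (95% CI -0.84 to -0.44), with an adjusted p of 0.00351, and it ranked 59th by size among all genes. The change at 24 h was 0.56 ± 0.09 (95% CI 0.36 to 0.76), with an adjusted p of 0.00377. Between the times the gene rose by 1.19 ± 0.09 (95% CI 0.99 to 1.39, adjusted p = 2.11e-05), the 21st largest difference of the array. These calls held when each of the 9 arrays was left out in turn.

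The other probe set of PPARGC1A did not follow. 1569141_a_at stayed between 3.90 and 4.10 on all 9 arrays, and the groups overlapped. Its changes were 0.026 ± 0.063 at 6 h (adjusted p = 0.896) and -0.046 ± 0.063 at 24 h (adjusted p = 0.763). Its mean signal lay at the 18.1st percentile of all probe sets, against the 52.2nd for 219195_at. The array annotation used here does not say which transcripts each probe set reads. With the mean of both probe sets, the PPARGC1A changes were -0.31 at 6 h, 0.25 at 24 h and 0.56 between the times, with adjusted p-values of 0.0114, 0.0156 and 9.1e-05.

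PPARGC1B, the paralog best known for mitochondrial and lipid gene programmes, did not pass in any comparison. Its brightest probe set, 1553639_a_at, read 6.80, 6.76 and 6.73 with vehicle, 6.76, 6.50 and 6.63 at 6 h, and 6.73, 6.45 and 6.83 at 24 h. All groups overlapped. The intervals bound what may have been missed: the change lay between -0.34 and 0.074 at 6 h (adjusted p = 0.540) and between -0.30 and 0.11 at 24 h (adjusted p = 0.626). The other 3 probe sets did not pass either. Of them, 1555282_a_at read lower in every 24 h array (6.36 to 6.52) than in any vehicle array (6.52 to 6.60), a change of -0.11 with an adjusted p of 0.361. In 1563943_at the 6 h change was 0.25 ± 0.12 (adjusted p = 0.377), and in 232181_at it was -0.0064 (adjusted p = 0.981). The 4 probe sets thus differed in the sign of their 6 h change, and the direction for the gene turned from -0.13 to 0.039 when they were averaged.

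Whether PPARGC1A and PPARGC1B differed from each other in response was not tested. The third coactivator of the family, PPRC1, was also below the threshold, with changes of 0.082 ± 0.057 at 6 h (adjusted p = 0.538) and -0.0066 ± 0.0569 at 24 h (adjusted p = 0.967).

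**Figure D3:**
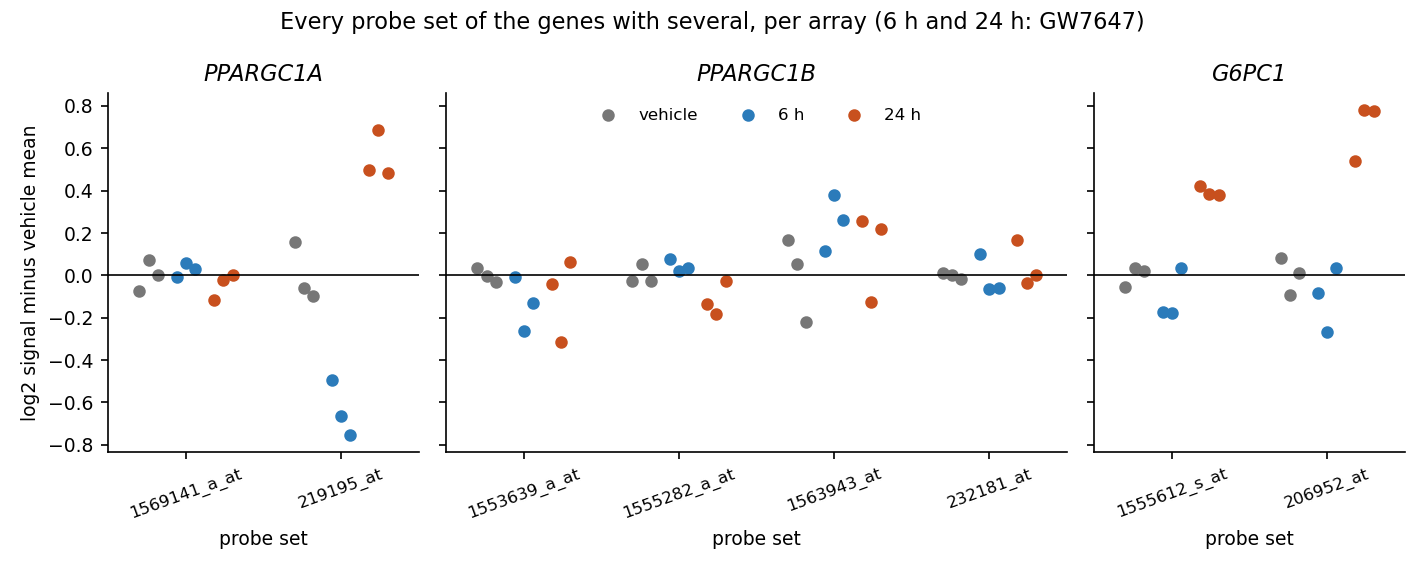
Log2 signal of each array minus the vehicle mean (vertical axis) for every probe set of PPARGC1A, PPARGC1B and G6PC1; points are arrays, coloured by group. Of the PPARGC1A probe sets, 219195_at spreads widely and 1569141_a_at stays near 0; both G6PC1 probe sets have their 24 h arrays apart from the others.

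CREB3L3 rose at 24 h, with wide scatter. Its 1 probe set, 234361_at, read 5.33, 5.75 and 5.49 with vehicle, 5.65, 5.83 and 5.85 at 6 h, and 5.83, 6.13 and 6.37 at 24 h. The 24 h arrays all lay above the vehicle arrays, while the 6 h arrays lay between and overlapped both. The means were 5.52 ± 0.21, 5.78 ± 0.11 and 6.11 ± 0.27 (SD, n = 3), the largest SD at 24 h among the 8 genes. The 24 h change was 0.59 ± 0.13 (95% CI 0.29 to 0.88), with an adjusted p of 0.0226. The change at 6 h was 0.26 ± 0.13 (95% CI -0.040 to 0.55, adjusted p = 0.386), and between the times it was 0.33 ± 0.13 (95% CI 0.034 to 0.63, adjusted p = 0.146). The 24 h call was lost without vehicle array 1 (adjusted p = 0.0890), vehicle array 3 (0.0606), 24 h array 2 (0.0724) or 24 h array 3 (0.0737), with changes from 0.46 to 0.72 over the leave-one-out fits. It was also lost when only vehicle and 24 h arrays were fitted (adjusted p = 0.0658).

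PC, which makes oxaloacetate from pyruvate and feeds the pathway, fell at 6 h and rose again by 24 h. 204476_s_at read 8.94, 9.11 and 8.87 with vehicle, 8.66, 8.61 and 8.69 at 6 h, and 9.04, 8.98 and 8.98 at 24 h. Every 6 h array lay below every other array, while vehicle and 24 h overlapped. The 6 h change was -0.32 ± 0.07 (95% CI -0.47 to -0.17, adjusted p = 0.0255), the 24 h change was 0.031 ± 0.067 (95% CI -0.12 to 0.18, adjusted p = 0.850), and the difference between the times was 0.35 ± 0.07 (95% CI 0.20 to 0.50, adjusted p = 0.00528). The rise from 6 h to 24 h held in all 9 leave-one-out fits. The 6 h call did not: its adjusted p was 0.0560 without vehicle array 1, 0.0871 without 6 h array 1, 0.120 without 6 h array 2 and 0.0636 without 6 h array 3. It was 0.0654 when only vehicle and 6 h arrays were fitted.

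The phosphoenolpyruvate carboxykinases differed in what was measured for them. PCK2, the mitochondrial form, read 9.99, 10.12 and 10.08 with vehicle, 10.10, 10.07 and 10.17 at 6 h, and 11.13, 11.11 and 11.01 at 24 h (202847_at). The vehicle and 6 h arrays overlapped, and the 24 h arrays lay well above both. The means were 10.06 ± 0.07, 10.11 ± 0.06 and 11.09 ± 0.06 (SD, n = 3). The change was 0.054 ± 0.061 at 6 h (95% CI -0.080 to 0.19, adjusted p = 0.722) and 1.03 ± 0.06 at 24 h (95% CI 0.89 to 1.16, adjusted p = 2.92e-06), the 42nd largest of the array at 24 h. Between the times PCK2 rose by 0.97 ± 0.06 (95% CI 0.84 to 1.11, adjusted p = 5.74e-06).

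PCK1, the cytosolic form, is the classical fasting target of PGC1α. Its 1 probe set, 208383_s_at, read 4.61, 4.96 and 4.32 with vehicle, 4.36, 4.42 and 4.58 at 6 h, and 4.65, 4.97 and 4.77 at 24 h. Its mean signal lay at the 28.7th percentile of probe sets, and the vehicle arrays alone spanned most of the range of all 9. The changes were -0.18 ± 0.14 at 6 h (95% CI -0.49 to 0.13, adjusted p = 0.586) and 0.16 ± 0.14 at 24 h (95% CI -0.14 to 0.47, adjusted p = 0.567). Every 24 h array was above every 6 h array, a difference of 0.34 ± 0.14 that did not pass (adjusted p = 0.147). The 24 h intervals of PCK1 and PCK2 did not overlap, but the difference between these genes was not tested.

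FBP1, which removes a phosphate from fructose-1,6-bisphosphate, did not pass in any comparison. 209696_at read 5.64, 5.68 and 5.77 with vehicle, 5.89, 5.77 and 5.82 at 6 h, and 5.77, 5.78 and 5.79 at 24 h, and neighbouring groups met or overlapped. The changes were 0.13 ± 0.06 at 6 h (95% CI 0.0056 to 0.26, adjusted p = 0.281), 0.082 ± 0.057 at 24 h (95% CI -0.043 to 0.21, adjusted p = 0.458) and -0.048 ± 0.057 between the times (95% CI -0.17 to 0.077, adjusted p = 0.662).

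G6PC1, the last enzyme of the pathway, rose at 24 h on both of its probe sets. The brighter, 1555612_s_at, read 5.06, 5.15 and 5.14 with vehicle, 4.95, 4.94 and 5.15 at 6 h, and 5.54, 5.50 and 5.50 at 24 h. The other, 206952_at, read 3.306, 3.132 and 3.238 with vehicle, 3.140, 2.958 and 3.259 at 6 h, and 3.764, 4.007 and 4.001 at 24 h. On both, vehicle and 6 h overlapped and every 24 h array lay above all others. On 1555612_s_at the change was -0.10 ± 0.07 at 6 h (95% CI -0.25 to 0.041, adjusted p = 0.486), 0.40 ± 0.07 at 24 h (95% CI 0.25 to 0.54, adjusted p = 0.00435) and 0.50 ± 0.07 between the times (95% CI 0.35 to 0.65, adjusted p = 0.000615). On 206952_at, tested among all probe sets, it was -0.11 ± 0.09 (adjusted p = 0.664), 0.70 ± 0.09 (adjusted p = 0.00161) and 0.80 ± 0.09 (adjusted p = 0.000406). The sizes thus differed by more than 1.5 times, and neither probe set is bright: their mean signals lay at the 37.8th and 6.11th percentiles. The G6PC1 and PCK2 calls, like those of PPARGC1A, held in all 9 leave-one-out fits.

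Counted by probe set, 2 of 13 were lower at 6 h, 5 of 13 higher at 24 h and 5 of 13 higher at 24 h than at 6 h, with none in the other direction. The background over all probe sets was 2.03%, 5.66% and 9.71% called. PC and PCK1 were read only through probe sets ending in _s_at, whose probes can match more than 1 transcript.

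The further genes of the glucose pathway were called at 24 h about as often as all genes. Of 26 measured genes of 30 listed, which hold the shared glycolytic steps, shuttles, glycogen breakdown and glucose export, 0 passed at 6 h (3.54% of all genes) and 2 passed at 24 h (8.17% of all genes). With the intensity trend 7 of 26 passed at 24 h, 6 higher and 1 lower, where 2235 of 19775 genes were called. Among genes above the median signal 7 of 22 passed, 6 higher and 1 lower, where 2343 of 9887 genes were called. In the main fit the median change of the 26 genes was -0.0074 at 6 h and 0.071 at 24 h. SLC2A2, the GLUT2 transporter that lets glucose leave the hepatocyte, had means of 7.79 ± 0.09 (vehicle), 7.60 ± 0.02 (6 h) and 7.08 ± 0.08 (24 h). It fell at 24 h, with a change of -0.70 ± 0.06 (adjusted p = 7.04e-05). G6PC3, the glucose-6-phosphatase found outside the liver as well, rose by 0.22 ± 0.06 at 24 h (adjusted p = 0.0352). The SLC2A2 call held in all 9 leave-one-out fits. The G6PC3 call passed only without vehicle array 2 or without 6 h array 2, and was lost without any other array, with adjusted p-values up to 0.106. SLC37A4, which carries glucose-6-phosphate to the phosphatase, changed by 0.08 ± 0.07 at 24 h (adjusted p = 0.577).

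Among 30 measured regulators of glucose production of 32 listed, 3 rose and 0 fell at 6 h, and 4 rose and 1 fell at 24 h, where 3.54% and 8.17% of all genes were called. The balance at 6 h depended on the setting. With the intensity trend 4 rose and 3 fell, where 472 of 19775 genes rose and 632 fell. Among genes above the median signal 4 of 26 rose and 5 fell, where 500 of 9887 genes rose and 706 fell. With only the compared groups 1 rose and 0 fell, where 454 of 19775 genes were called. The same count came over the mean of all probe sets (584 of 19775) and, of 26 measured, without shared probes (454 of 17098). In the main fit the median change of the 30 regulators was -0.079 at 6 h and 0.028 at 24 h. FOXO1, the forkhead factor that insulin switches off and a partner of PGC1α, rose from 8.10 ± 0.14 to 8.44 ± 0.03 at 6 h and 8.63 ± 0.05 at 24 h (SD, n = 3). Its changes were 0.35 ± 0.07 (adjusted p = 0.0246) and 0.54 ± 0.07 (adjusted p = 0.00114). TRIB3, a pseudokinase known to inhibit AKT signalling, rose by 0.67 ± 0.05 at 6 h (adjusted p = 5.98e-05) and 0.74 ± 0.05 at 24 h (adjusted p = 1.49e-05). NR0B2 (SHP), a repressor that lacks a DNA-binding domain and is known to damp gluconeogenic genes, was at 9.58 ± 0.08 with vehicle, 9.67 ± 0.04 at 6 h and 10.48 ± 0.01 at 24 h, a 24 h change of 0.90 ± 0.06 (adjusted p = 5.26e-06).

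The smaller calls in the regulators' list lay near the threshold and were lost in many of the 9 leave-one-out fits. NR3C1, the glucocorticoid receptor, rose by 0.27 ± 0.06 at 6 h (adjusted p = 0.0314). Of the catalytic subunits of AMP-activated kinase, PRKAA1 rose by 0.25 ± 0.07 (adjusted p = 0.0430) and PRKAA2 fell by 0.29 ± 0.08 (adjusted p = 0.0493) at 24 h. The FOXO1 call at 6 h was lost without vehicle array 1 or 2 or any single 6 h array (highest adjusted p 0.102), and the NR3C1 call without vehicle array 2 or 3 or any single 6 h array (highest 0.107). PRKAA1 passed only without vehicle array 2 or 24 h array 1 (otherwise up to 0.142), and PRKAA2 only without vehicle array 2 (otherwise up to 0.151). With probe sets averaged, FOXO1 at 6 h was 0.15 (adjusted p = 0.145), PRKAA1 0.11 (0.336) and PRKAA2 -0.09 (0.520), and without shared probes NR3C1 was 0.06 (0.902). The 24 h calls of FOXO1, TRIB3 and NR0B2 and the 6 h call of TRIB3 held in all 9 leave-one-out fits.

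CRTC2, the CREB coactivator that glucagon activates, changed by -0.20 ± 0.06 at 6 h (adjusted p = 0.135) and -0.06 ± 0.06 at 24 h (adjusted p = 0.689). The glucagon receptor GCGR changed by -0.20 ± 0.09 (adjusted p = 0.283) and -0.23 ± 0.09 (adjusted p = 0.140). GCKR changed by -0.07 ± 0.06 and -0.06 ± 0.06 (adjusted p = 0.567 and 0.605). None of these 3 passed. HNF4A was not analysed here because no probe set carries its symbol alone.

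Of the transcription factors and cofactors that PGC1 proteins work with, 23 of 25 were measured. At 6 h 1 rose and 3 fell (3.54% of all genes called), and at 24 h 1 rose and 0 fell (8.17% of all genes called), with median changes of -0.067 and 0.017. PPARA, the receptor that GW7647 activates, had group means of 8.49 ± 0.10 (vehicle), 7.88 ± 0.03 (6 h) and 8.43 ± 0.04 (24 h). Its partner RXRA was at 9.69 ± 0.11, 9.05 ± 0.09 and 9.63 ± 0.06. Their 6 h changes were -0.61 ± 0.06 (adjusted p = 0.000331) and -0.64 ± 0.07 (adjusted p = 0.000736), and at 24 h they were -0.06 ± 0.06 (adjusted p = 0.655) and -0.06 ± 0.07 (adjusted p = 0.696). The 6 h falls had about the size of that of PPARGC1A, whose 24 h level however lay above vehicle. FOXA2, a forkhead factor of the hepatocyte, fell by 0.34 ± 0.06 at 6 h (adjusted p = 0.0132) and rose by 0.25 ± 0.06 at 24 h (adjusted p = 0.0290). LPIN1, a phosphatidate phosphatase that also acts as a PGC1α coactivator, rose by 0.35 ± 0.06 at 6 h (adjusted p = 0.0110).

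The PPARA and RXRA calls at 6 h held in all 9 leave-one-out fits. The FOXA2 call at 6 h was lost without 6 h array 2 (adjusted p = 0.0720), and at 24 h without any single vehicle array, 24 h array 1 or 24 h array 2 (up to 0.0983). The LPIN1 call was lost without 6 h array 1 or 3 (up to 0.0582). Without shared probes FOXA2 changed by -0.21 at 6 h (adjusted p = 0.293). ESRRA, the estrogen-related receptor through which PGC1α acts on mitochondrial genes, changed by 0.15 ± 0.06 at 24 h (adjusted p = 0.145) and rose by 0.23 ± 0.06 between the times (adjusted p = 0.0236), a call lost without 6 h array 1 or 3 or 24 h array 2 or 3 (up to 0.0961). NRIP1, a corepressor of nuclear receptors, changed by 0.11 ± 0.17 at 24 h (adjusted p = 0.769), with an SD of 0.45 among vehicle arrays.

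Of the mitochondrial genes that PGC1α is known to raise, 21 of 24 listed were measured. At 6 h 0 passed, and at 24 h 2 rose and 2 fell, where 8.17% of all genes were called, with a median of 0.042. CPT1A, the gate of fatty acid entry into mitochondria and a direct PPARα target, rose from 9.91 ± 0.21 to 10.68 ± 0.02 (SD, n = 3), a change of 0.77 ± 0.09 (adjusted p = 0.000485). UCP2, a carrier of the inner membrane, rose by 0.56 ± 0.07 (adjusted p = 0.000563). CYCS (cytochrome c) fell by 0.30 ± 0.06 (adjusted p = 0.0143) and IDH3A, a citric acid cycle subunit, fell by 0.21 ± 0.06 (adjusted p = 0.0487). The CPT1A and UCP2 calls held in all 9 leave-one-out fits. That of CYCS was lost without vehicle array 1 or 3 or 24 h array 1 (adjusted p up to 0.0554), and that of IDH3A without any array but vehicle array 2 (up to 0.137). With probe sets averaged, CYCS changed by -0.24 (adjusted p = 0.162) and IDH3A by -0.19 (0.0504). Without shared probes IDH3A changed by -0.055 (0.879). TFAM, which maintains mitochondrial DNA, changed by 0.19 ± 0.07 at 6 h (adjusted p = 0.207) and 0.03 ± 0.07 at 24 h (adjusted p = 0.865).

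Around CREB3L3, 6 of 7 relatives and processing factors and 7 of 8 reported target genes were measured, and 0 of either list passed at 6 h (3.54% of all genes called). At 24 h, where 8.17% of all genes were called, 1 of 6 relatives and processing factors rose. It was CREB3L4, a factor of the same family, with 0.29 ± 0.07 (adjusted p = 0.0296). MBTPS1, a processing factor named after its values were seen, changed by 0.12 at 24 h (adjusted p = 0.311). MBTPS1 passed with probe sets averaged (0.24, adjusted p = 0.0146) and without shared probes (0.36, adjusted p = 0.00676). Of the targets 1 of 7 rose, APOA5, a plasma activator of triglyceride clearance, with 0.39 ± 0.08 (adjusted p = 0.0157). The list medians at 24 h were 0.12 and -0.018. The CREB3L4 call was lost without vehicle array 1 or 3 or 24 h array 1 or 2 (adjusted p up to 0.103), and the APOA5 call without vehicle array 1 or 24 h array 2 (up to 0.0661). FGF21, a fasting hormone that CREB3L3 and PPARα are both known to drive, changed by 0.06 ± 0.09 at 6 h (adjusted p = 0.800) and -0.02 ± 0.09 at 24 h (adjusted p = 0.941).

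**Figure D4:**
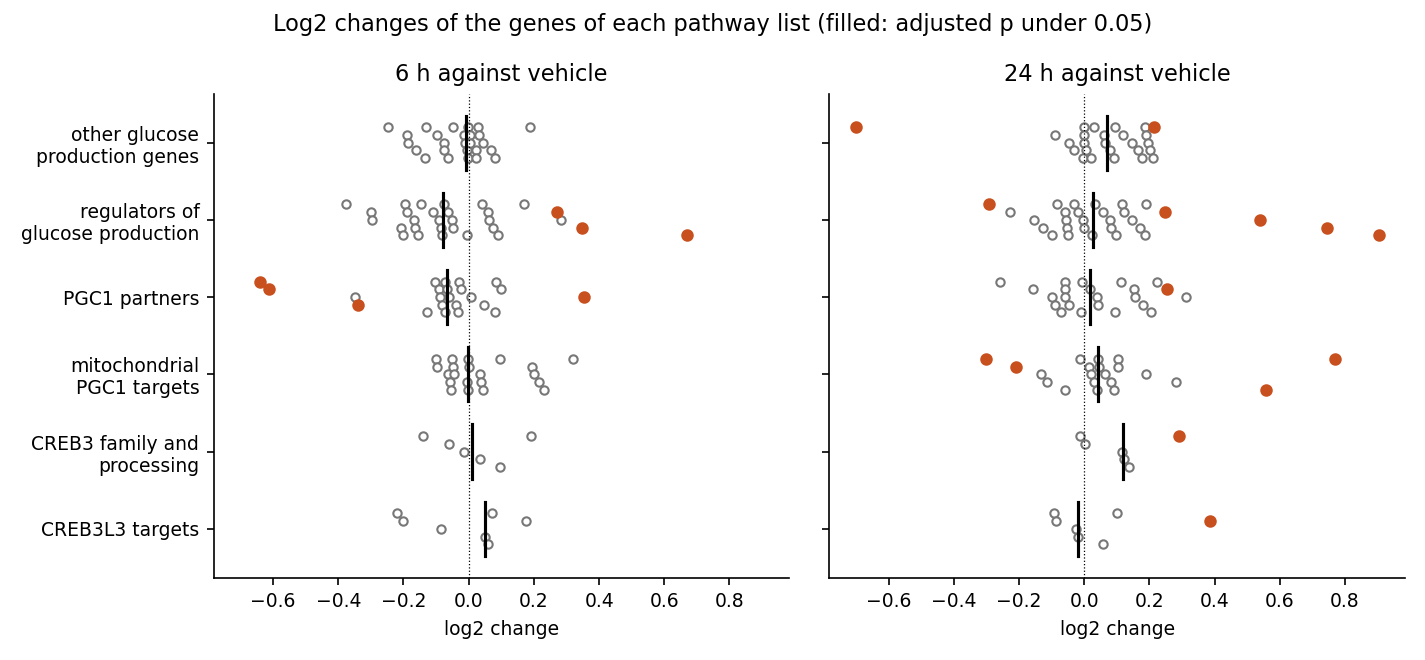
Log2 change against vehicle (horizontal axis) of each measured gene of the 6 pathway lists at 6 h and 24 h; filled points passed at an adjusted p under 0.05 and black lines mark list medians. The medians lie between -0.08 and 0.12, and filled points are few in every list, with NR0B2 (0.90), CPT1A (0.77) and TRIB3 (0.74) farthest right and SLC2A2 (-0.70) farthest left at 24 h.

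The genes whose signal followed each changed member most closely were found by Pearson correlation over the 9 arrays, among the 2109 genes that passed in at least 1 comparison with vehicle. The arrays fall into the 3 groups, so this measures likeness of the group pattern and carries no test. PPARGC1A was followed by DEPP1 (r = 0.989), DIO1 (0.981) and AUH (0.980). DEPP1 changed by -0.31 at 6 h and 0.29 at 24 h, DIO1 (type 1 deiodinase, which activates thyroid hormone) by -0.44 and 0.39, and AUH (an enzyme of leucine breakdown) by -0.22 and 0.24. All of these thus went down first and up later, as PPARGC1A did, by smaller steps.

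PCK2 was followed by YARS1 (r = 0.998), SHMT2 (0.998) and NR0B2 (0.996). YARS1 encodes the cytosolic tyrosyl-tRNA synthetase and SHMT2 the mitochondrial serine hydroxymethyltransferase. They rose by 1.04 and 0.81 at 24 h and changed by 0.08 and 0.03 at 6 h. For G6PC1 the nearest were KDM3B (0.989), EFNA1 (0.987) and HDAC5 (0.986), with 24 h changes of 0.28, 0.59 and 0.45. For PC they were MTARC1 (0.979), C1R (0.978) and NFATC3 (0.978), with 6 h changes of -0.31, -0.26 and -0.25. For CREB3L3 they were SLC35H1 (0.974), TLCD5 (0.941) and ZDHHC2 (0.926), with 24 h changes of 0.23, 0.29 and 0.30.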

How the data were processed

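Values were the log2 probe set signals as deposited, 1 column per array; RMA is named in the submitters' processing notes, without a version, and the sources used here name neither chip definition nor software. RMA compresses differences between dim probe sets, so their folds may be understated. Per the labels' protocols, RNA was labelled in 1 cycle. Of 54675 probe sets, 62 were controls, 41091 others had 1 gene symbol, 1801 several and 11721 none; 41037 were found by Entrez ID among the GRCh38.p14 genes, with 0 symbols updated. The brightest probe set over the 9 arrays represented each of 19775 genes. No signal filter was applied.

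The 9 arrays entered 1 model of group means, through lmFit and eBayes of limma 3.58.1 (R 4.3.3; package data.table, release 1.17.8; 6 residual, 11.0 total degrees of freedom). Groups follow the treatment and time in the labels. Tests were two-sided, adjusted by Benjamini-Hochberg over all genes and called under 0.05. A second fit tested all 41091 probe sets, adjusted over them. The median SE at 24 h was 0.07. The number of arrays limits the precision, and an exact permutation test of 3 against 3 cannot go below 0.10. The script was tested on simulated data.

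The members and lists were chosen with earlier results of these data known. Named genes were all members, every list gene that passed against vehicle (at most 8 a list), 16 genes named whatever their test, and the 3 genes most like each changed member. Alternatives were the replicate block, only the compared groups, an intensity trend with a robust prior, a signal filter, median centring, quantile normalization, other probe set choices, limma's array weights, a threshold of 0.01 and leaving out each array.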

Additional observations from a re-analysis of the deposited data

Results flagged for a closer look

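For 4 members the level differed between the time points, by the limma contrast of 24 h against 6 h. There is 1 vehicle group with no control matched to each time, so this difference and time in culture cannot be told apart. PPARGC1A was higher at 24 h by 1.19 on the log2 scale (adjusted p = 2.11e-05), going from -0.64 to 0.56 against vehicle, and it is the member that lay on opposite sides of vehicle with a call at both times. PCK2 was higher by 0.97 (adjusted p = 5.74e-06), from 0.054 to 1.03. G6PC1 was higher by 0.50 (adjusted p = 0.000615), from -0.10 to 0.40. PC was higher by 0.35 (adjusted p = 0.00528), from -0.32 to 0.031. All 3 arrays at 24 h lay above all 3 at 6 h for each of the 4 genes. No cause was tested. Groups of 3 arrays are too small for a check of single outlying arrays.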

How the results depend on the processing

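Over the alternatives run, the calls of PPARGC1A, PCK2 and G6PC1 kept direction and threshold wherever the gene was tested, also at an adjusted p under 0.01. The PC call at 6 h and the CREB3L3 call at 24 h did not. Of 8 members, 2 were called at 6 h, PPARGC1A and PC. PPARGC1A alone was called with the replicate block, with only the compared groups and at an adjusted p under 0.01. When 1 array was left out, 1 to 2 members were called. Among genes above the median signal 2 members were tested at 6 h, and PC was called (adjusted p = 0.00660). Without shared probes 6 members were tested, and PPARGC1A was called. At 24 h against vehicle 4 were called, with 1 of 2 tested among genes above the median signal and 3 to 4 without 1 array. Between the times 4 were called, with 2 of 2 tested among genes above the median signal and 4 to 5 without 1 array. The signal filter leaves dim members untested. Without shared probes PC and PCK1 are left out, and G6PC1 is read by its dimmer probe set 206952_at, at the 6.11th percentile.

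The replicate block gave 1, 4 and 5 called members at 6 h, 24 h and between the times (PC at 6 h, adjusted p = 0.0587; CREB3L3 between the times, 0.0485), and 427, 1216 and 2197 genes in place of 701, 1616 and 2729. Over 9 pairs of arrays with the same number, deviations from group means correlated at -0.20 to 0.086. The own number was the best match in 4 of 18 checks. With 3 arrays per group, this cannot decide whether equal numbers belong together, and the labels do not say so. CREB3L3 also passed between the times without 24 h array 1 (0.0387), and PCK1 with only the compared groups (0.0443).

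Among members, signs turned for changes that passed nowhere: PC at 24 h without vehicle array 3 (-0.022 to 0.099 over the arrays left out), and PPARGC1B at 6 h with probe sets averaged (0.039), at 24 h without 24 h array 2 (-0.18 to 0.012), and between the times with probe sets averaged (-0.051) or without 6 h array 2 or 24 h array 3 (-0.041 to 0.15). Over all genes, the signal filter gave 1206 calls at 6 h and the intensity trend 1104, against 454 with only the compared groups, 454 without shared probes, and 234, 695 and 1328 at an adjusted p under 0.01. At 24 h only the compared groups gave 921, and between the times 1774 genes passed without shared probes. Leaving out 1 array gave 261 (6 h array 2 left out) to 637 calls at 6 h, 1005 (24 h array 2) to 1664 at 24 h and 1519 (6 h array 2) to 3082 between the times. Of the list genes, YY1, a PGC1 partner named after its values were seen, changed by 0.21 at 24 h (adjusted p = 0.219) and by -0.48 without shared probes (0.00333). At 6 h YY1 changed by -0.032 (adjusted p = 0.905), by -0.78 without shared probes (0.000313) and by -0.31 with probe sets averaged (0.0104). The causes were not tested.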

Other observations

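The comparison of 24 h with 6 h, in which 13.8% of all genes were called, gave these values for further glucose genes, named after their values were seen. Of the 26 measured further genes of glucose production, 7 rose and 1 fell. The 8 calls became 4 with the replicate block (2197 of all genes called) and at an adjusted p under 0.01 (1328). They also became 4 without 6 h array 2 (1519), 24 h array 1 (2054) or 24 h array 2 (1902). They became 5 without 6 h array 1 (1739) and, of 18 measured, 5 without shared probes (1774 of 17098). PYGL, the liver glycogen phosphorylase, rose by 0.44 (adjusted p = 0.00211), PGM1, which links glycogen to glucose-6-phosphate, by 0.35 (0.00597), and MDH2, the mitochondrial malate dehydrogenase, by 0.26 (0.00725). These 3 and the fall of SLC2A2 by 0.51 (0.000394) held in all 9 leave-one-out fits, while the rises of G6PC3, TPI1, GPI and MPC1 did not. Of the 30 regulators, 5 rose and 2 fell. CEBPB, a factor of the gluconeogenic programme, rose by 0.40 (0.000947), and NR3C1 fell by 0.43 (0.000829). Without shared probes MDH2 changed by 0.19 (adjusted p = 0.0815) and NR3C1 by -0.23 (adjusted p = 0.459), and neither passed. Among the 9 hepatoma markers 2 fell between 24 h and vehicle, TTR by 0.55 and FGB by 0.67, while 7 did not pass.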
